A study of Mus musculus with 31 samples.

Results

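The earliest comparison of the series set brain RNA taken 1 h after an injection of oleic acid against brain RNA taken 1 h after an injection of physiological serum. It held 6 of the 31 arrays, 3 from oleic acid mice and 3 from serum mice, chosen by treatment and time in the labels. All mice were female C57BL/6 (the treatment notes give the substrain as C57Bl/6J), aged 6 weeks, and were anaesthetised with xylazine and ketamine before a tail-vein injection of 200 µl. The oleic acid mice received 1.2 µl of oleic acid per g of body weight, which injures the lung, and the serum mice received physiological serum in the same volume. Total brain RNA (200 ng) was labelled with Cy3 and put on a single-colour Agilent array, 1 array per mouse. The labels do not say that mice were pooled, and the other 25 arrays came from 1.5, 3, 4, 18 and 24 h. All 18 neuron markers examined lay above background on all 6 arrays, and the neuronal surface protein gene Thy1 had log2 signals of 7.40, 7.37 and 7.94 after oleic acid and 7.60, 7.36 and 7.38 after serum.

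Intravenous oleic acid is used in animals as a model of acute lung injury: it damages the capillary wall and the alveolar lining and floods the airspace. The brain receives the same blood, and its vessels and choroid plexus face circulating lipids and mediators. An organ dissected without flushing its vessels also carries the RNA of red cells and white cells. Transcripts made almost only in liver or lung are not known as products of brain cells, so blood, liver and lung transcripts are given first here and apart from those of the brain. In bulk RNA, fewer cells of a type and less RNA per cell cannot be told apart.

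Levels are given as log2 of the processed spot intensity over the 75th percentile of the same array, so that 0 is the 75th percentile and each unit is a doubling. Differences are oleic acid minus serum on this log2 scale, with the standard error (SE) of the limma fit. The 75th percentiles were 813, 678 and 306 intensity units on the oleic acid arrays and 584, 559 and 631 on the serum arrays. Oleic acid replicate 3 was thus the dimmest array. Its mean correlation with the other 5 arrays of 1 h was 0.978, against 0.987 to 0.991 for the others, and 54.3% of its probes lay above background, against 62.1% to 67.6%. All 6 arrays lay on slide 1 and shared scan 1. Oleic acid replicates 2 and 3 lay in row 2 of that slide, and oleic acid replicate 1 and the 3 serum arrays in row 1.

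No gene of 25173 tested passed an adjusted p of 0.05 at 1 h (0% called; limma with Benjamini-Hochberg adjustment), while 1221 genes (4.85%) had an unadjusted p under 0.05. Of these, 419 (1.66%) were higher and 802 (3.19%) lower after oleic acid. In 1033 genes (4.10%) every oleic acid array lay above every serum array, and in 1459 genes (5.80%) every oleic acid array lay below; such genes are called separate here. The median difference over all genes was 0.00. With no gene past the test, the genes below are described by their values, and none of them is called changed. No gene passed the adjusted test of whether the difference at 1 h departed from its mean at the other 5 times either (0% called), and 827 genes (3.29%) had an unadjusted p under 0.05 in it.

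Of the gene lists, those of liver, red cells and lung had the medians furthest from 0, and all 3 were lower after oleic acid. Of 128 genes classed as organ genes, by list or by following an organ list across the 25 arrays of the other times, 59 had an unadjusted p under 0.05 and were lower after oleic acid, and 0 were higher. Among the 21110 genes that were no organ genes and lay above background on all 6 arrays, 355 were higher and 578 lower by the same measure. Differences of more than 1 log2 unit were found in 59 organ genes, 58 of them lower after oleic acid, and in 61 of the 21110 other genes, 33 higher and 28 lower. Of the organ genes, 77 lay above background on all 6 arrays and 51 were dim on some. The remaining 3935 genes, no organ genes but also dim on some array, held 177 such differences, 64 higher and 113 lower, and 64 higher and 165 lower genes with an unadjusted p under 0.05.

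The count of calls rested on serum replicate 3, whose liver, lung and red cell levels were the lowest of the 3 serum arrays. Without it, 30 genes (0.119%) passed the adjusted test, 27 lower (0.107%) and 3 higher (0.0119%) after oleic acid, and 12 (0.0477%) passed for 1 h against the other times. Of the 30, 16 were organ genes, among them Mup4, Mup5, Serpinc1, Sftpc, Scgb3a1 and Hbb-bt. The other 14 were on no organ list and stayed below the correlation limit of 0.8 over the other times. Among these 14, Hpd, Cyp2d26, Agxt, Hp and Fbp1 had correlations of 0.77, 0.73, 0.66, 0.64 and 0.63 with the liver list. Cbr2 had 0.62 with the lung list, and Fgl1, Aqp5 and Apoc1 had lower ones. Ciart, Dbp and Upb1 were below 0 with both lists, and the rest were probes without a gene symbol. Only 15 of the 30 lay above background on all 6 arrays. Without oleic acid replicate 1, Mup5 alone passed, but neither remaining oleic acid array measured it above background, so that its difference there is only a bound. The other 4 arrays could each be left out with 0 genes called. Serum replicate 3 is thus the array whose omission gave the most calls, and leaving it out also leaves fewer serum mice. Adjusted p-values without it, here and below, show how far the calls depend on 1 array and are no support for a gene.

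**Figure D1:**
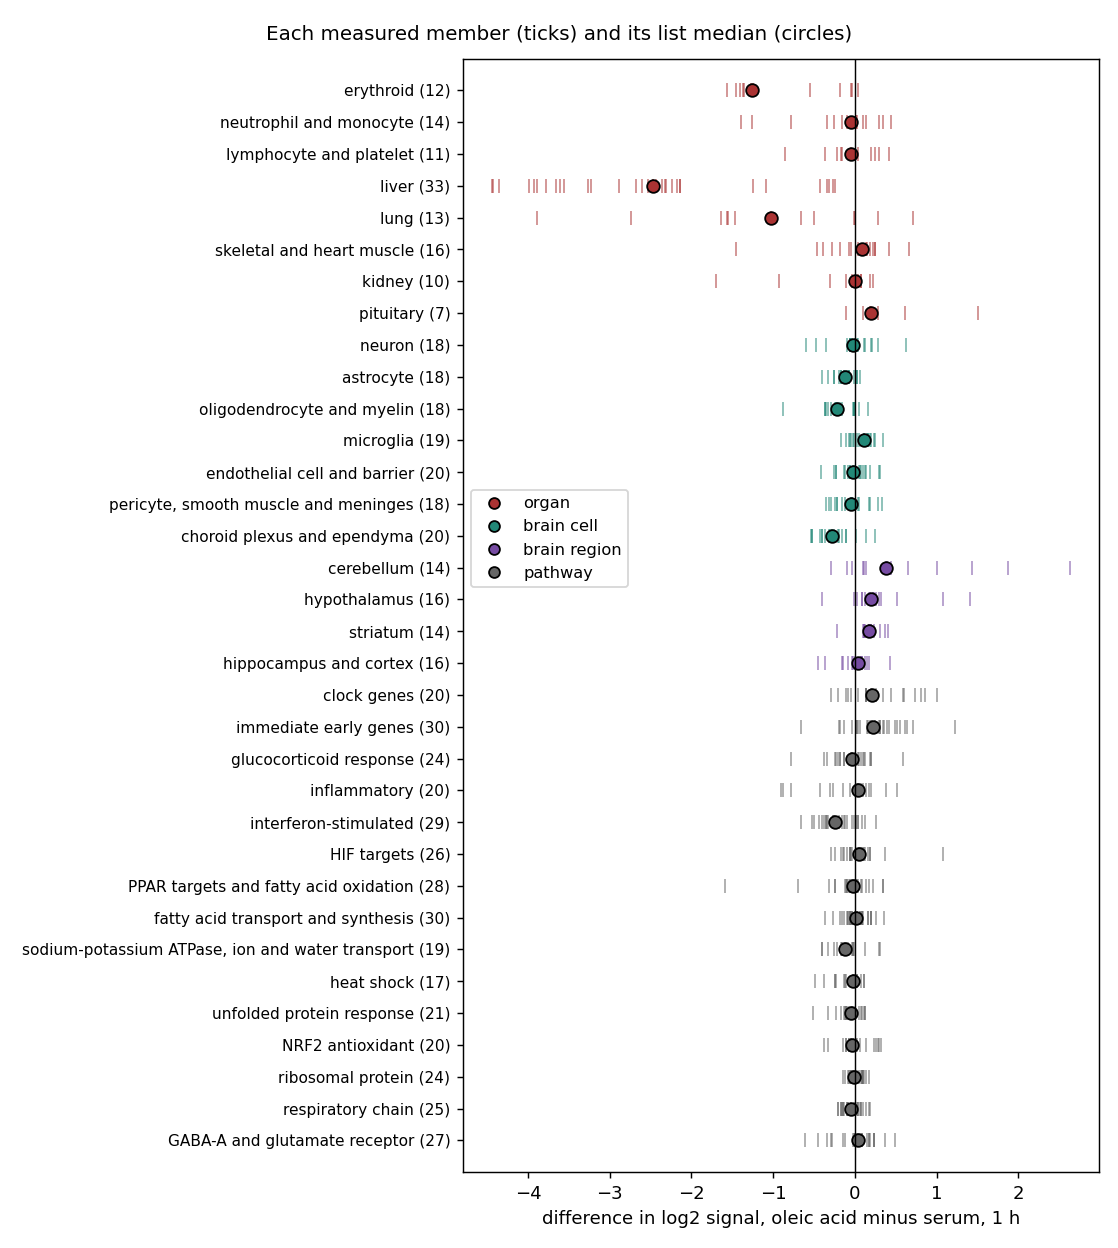
Difference in log2 signal at 1 h, oleic acid minus serum, of each measured member (ticks) of 34 gene lists and the median of each list (circles), with the number of measured members in brackets and colours for the kind of list. The liver, erythroid and lung lists have medians of -2.47, -1.26 and -1.03, and the medians of the other lists lie between -0.28 and 0.38.

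All 33 measured genes of the liver list were lower after oleic acid, with a median difference of -2.47. In 26 of them the groups were separate, and 28 had an unadjusted p under 0.05 with oleic acid lower, beside 5.80% and 3.19% of all genes. Only 13 of the 33 lay above background on all 6 arrays, and their median was -1.25. The counts of separate groups and of p cover all 33, so they rest in part on signals below background. A gene could also pass the filter through the serum arrays of 1 h alone, where the liver list was higher. With each signal below background raised to the dimmest signal above background on its array, called the floor here, the median of the 33 was -2.20. Across all genes tested, 49.6% were lower and 50.4% higher. The mean log2 signal of the list was -3.71, -5.09 and -4.14 on the oleic acid arrays and -2.48, 0.04 and -2.89 on the serum arrays. Serum replicate 2 was the highest by far, and all oleic acid arrays lay below all serum arrays. Without oleic acid replicate 3 the median was -2.57, and without serum replicate 2 it was -1.53. In the authors' deposited value table it was -1.52, and with normexp background correction -1.18.

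Mup5, one of the major urinary proteins that liver secretes to carry pheromones, had the smallest p of all genes. Its log2 signal was -5.88, -7.67 and -6.77 after oleic acid and -4.37, -2.14 and -4.02 after serum, a fitted difference of -3.26 (SE 0.53; adjusted p = 0.0987, limma). It was above background on 1 of the 3 oleic acid arrays and on all 3 serum arrays, so that the fitted size rests on signals below background. With those at the floor, Mup5 was at least 3.54-fold lower after oleic acid. The Mup5 probe lies on the minus strand of chromosome 4 (61496097 to 61496156, mm9). Mup4 and Mup18 of the same family, above background on all 6 arrays, differed by -2.67 and -3.58, and Mup20 was at least 5.19-fold lower, but these genes are near-identical copies, and their probes may share transcripts.

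Alb, which encodes serum albumin, stood at -1.55, -5.68 and -1.64 after oleic acid and at -0.15, 2.78 and -0.82 after serum. The oleic acid arrays were all lower, with serum replicate 3 the nearest to them, and the difference was -3.56 (SE 1.04). The fibrinogen genes Fgb and Fgg, whose products form the clot, were at least 10.6-fold and 9.21-fold lower after oleic acid. Serpinc1, which encodes antithrombin, was at least 6.00-fold lower, and Fabp1, the fatty acid binding protein of liver, at least 7.95-fold. Each of these 4 was above background on all 3 serum arrays and on 1 oleic acid array, and the folds set the other oleic acid arrays at the floor. Alb was below background on oleic acid replicate 2.

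Ahsg (fetuin A) and Ambp, both secreted plasma proteins, were above background on 2 of the oleic acid arrays. Ambp was at least 8.66-fold lower after oleic acid. Ahsg was 15.8-fold lower, which is its fitted difference of -3.99 and no bound, since its signal below background was not under the floor. Serpina3k was at least 8.34-fold lower, the steroid-metabolising enzyme Akr1c6 at least 4.61-fold and the hepatic uptake transporter Slco1b2 at least 3.08-fold, each above background on 1 oleic acid array. Cyp2d10, a cytochrome P450, was not well above background on any oleic acid array and was at least 3.15-fold lower after oleic acid. All these folds set the mean of the serum arrays against oleic acid arrays at the floor, or at the gene's own signal where that was higher. They are minima only against that floor, since a signal below background need not lie under it, as for Ahsg. Adjusted p-values of the 15 lower organ genes of smallest p, Hbb-bt among them, ranged from 0.0987 to 0.340 (limma).

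Apoa2, an apolipoprotein on the liver list that was bright on all 6 arrays, stood at 2.72, 2.62 and 2.95 after oleic acid and at 2.65, 3.45 and 2.91 after serum, with overlap. Rbp4, the plasma carrier of retinol, which choroid plexus and meninges also express, differed by -0.27 (SE 0.15).

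Some further transcripts with a liver or plasma role lay outside the organ class, since they followed the liver list less closely over the other times than the limit of 0.8. Haptoglobin (Hp), which binds free haemoglobin, had log2 signals of -2.12, -2.74 and -2.65 after oleic acid and of -0.49, 1.99 and -1.91 after serum. Its correlation with the liver list over the 25 other arrays was 0.64. Cyp2d26 and Cyp2a4 differed by -1.70 (SE 0.44) and -0.96 (SE 0.27), with correlations of 0.73 and 0.71. Apoc1 and complement C3, which glia can express too, differed by -1.18 (SE 0.29) and -1.22 (SE 0.35), with correlations of 0.37 and 0.44. In all 5, serum replicate 2 was the highest array, as in the liver list, and the part that liver RNA had in these values was not tested.

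Of the 13 measured lung genes, 10 were lower after oleic acid, with a median difference of -1.03, 9 with an unadjusted p under 0.05 and oleic acid lower, beside 3.19% of all genes. The median was -0.55 in the authors' deposited value table, -0.43 with normexp and -0.66 with dim signals at the floor. Only 2 of them, Cyp2f2 and Lyz1, had separate groups. Sftpc, the surfactant protein of alveolar type II cells, had signals of -0.65, -1.65 and -0.16 after oleic acid and of 2.71, 3.65 and -0.61 after serum. Scgb1a1, the secretoglobin of airway club cells, had signals of -1.35, -5.10 and -0.96 after oleic acid and of 2.39, 3.18 and -1.32 after serum. In both genes serum replicates 1 and 2 were high, and serum replicate 3 lay among the oleic acid arrays.

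The differences of Sftpc and Scgb1a1 were -2.74 (SE 0.77) and -3.88 (SE 1.13). Without serum replicate 3, the serum array that lay among the oleic acid arrays, the difference of Sftpc was -4.004. Its adjusted p was then 0.0177 in limma, which is no separate support. Lamp3, a lung list gene that was bright on all 6 arrays, differed by 0.01, and Nkx2-1, a transcription factor of lung, thyroid and hypothalamus that was above background on 2 of the serum arrays, by 0.71 (SE 0.42). Aqp5, a water channel of lung and gland epithelium outside the lung list, had signals of -4.18, -3.91 and -4.24 after oleic acid and of -2.97, -2.80 and -3.96 after serum, again with serum replicate 3 among the oleic acid arrays.

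**Figure D2:**
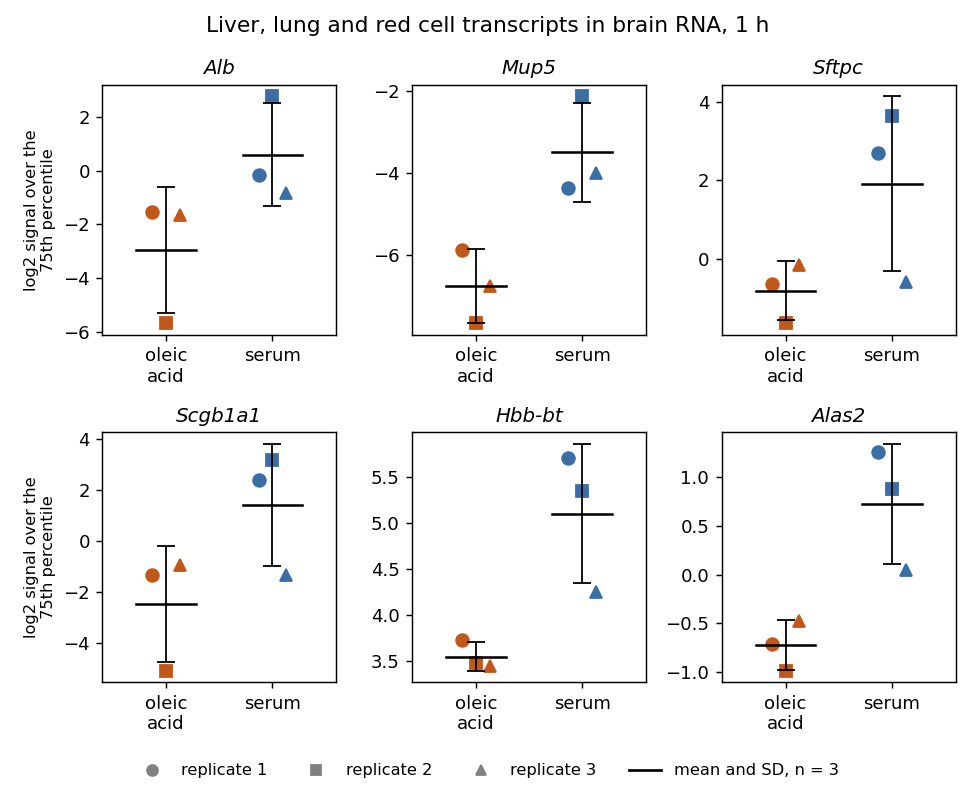
Log2 signal over the 75th percentile of the array for 6 organ transcripts at 1 h, 3 oleic acid arrays left and 3 serum arrays right of each panel, with symbols for the replicate and bars for mean and SD. Alb and Mup5 (liver) are highest in serum replicate 2, Sftpc and Scgb1a1 (lung) are high in serum replicates 1 and 2 alone, and Hbb-bt and Alas2 (red cells) are lower on every oleic acid array.

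Red cell transcripts were lower after oleic acid in 11 of 12 measured genes, with a median difference of -1.26, and 7 of them had separate groups, beside 5.80% of all genes. Hbb-bt, an adult beta globin, had log2 signals of 3.72, 3.48 and 3.44 after oleic acid and of 5.71, 5.36 and 4.25 after serum. Serum replicate 3 was the lowest of the serum arrays but stayed above every oleic acid array. The difference of Hbb-bt was -1.56 (SE 0.37; adjusted p = 0.340, limma), a level 2.95-fold lower after oleic acid, and without serum replicate 3 it was -1.99 (adjusted p = 0.0344). Alas2, the first enzyme of haem synthesis in red cell precursors, stood at -0.71, -0.99 and -0.48 after oleic acid and at 1.26, 0.88 and 0.04 after serum, a difference of -1.45 (SE 0.35).

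The globin genes Hba-a1, Hba-a2, Hbb-b2 and Hbb-bs differed by -1.27, -1.25, -1.41 and -1.37. Such genes are near-identical within each pair or cluster, and their probes may share transcripts. Ahsp, the chaperone of alpha globin, was at least 1.66-fold lower after oleic acid, with 1 oleic acid array above background. Slc4a1, the anion exchanger of the red cell membrane, differed by -0.55 (SE 0.37), and Fech, the last enzyme of haem synthesis, which brain cells also make, by -0.04 (SE 0.13). Without oleic acid replicate 3, the dim array, the median of the erythroid list was -1.40, and over all arrays left out in turn it ranged from -1.57 to -1.03. It was -0.90 in the authors' deposited value table, -0.77 with normexp and -0.19 without the filter on dim probes, which adds dim members.

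Among white cell transcripts the medians were -0.04 for the neutrophil and monocyte list and -0.04 for the lymphocyte and platelet list. S100a8 and S100a9, the calprotectin subunits of neutrophils, differed by -0.34 (SE 0.43) and -0.26 (SE 0.41). In the first list 1 of 14 measured genes, Chil3, had separate groups, near the 5.80% of all genes with oleic acid lower. Chil3, a chitinase-like protein of macrophages, stood at -3.30, -3.93 and -3.79 after oleic acid and at -2.06, -2.09 and -3.10 after serum. Plac8 differed by -1.40 (SE 0.53), but it was above background on 2 of the 3 oleic acid arrays. Chil3 is also made by lung macrophages and Plac8 by several epithelia, and the part that lung RNA had in these values was not tested.

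Lists of other organs were near 0, with medians of 0.09 for skeletal and heart muscle, 0.00 for kidney and 0.19 for pituitary. Myh6, the heart myosin, had signals of -4.15, -4.29 and -3.24 after oleic acid and of -2.97, -0.53 and -3.82 after serum, with the highest value once more in serum replicate 2. Among organ genes that were higher after oleic acid, the smallest unadjusted p belonged to Myh4, a myosin of fast muscle, which differed by 0.42 (SE 0.22). The gelatinase gene Mmp9, above background on 2 arrays of each group, and the pituitary factor Pou1f1 differed by 0.34 (SE 0.18) and 0.61 (SE 0.33). The value of Pou1f1 came from oleic acid replicate 3, which stood at 5.08 while the other 5 arrays lay between 3.13 and 3.38.

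Clock genes were among the brain transcripts that were higher after oleic acid: Ciart had the smallest p of the higher brain genes, and Dbp and Per2 followed at ranks 4 and 5. The labels give no time of day for the injections, and the part that time of day had in these values was not tested. The circadian clock is a feedback loop in which CLOCK and its partner BMAL1 (Arntl) switch on the Per, Cry, Rev-erb (Nr1d1, Nr1d2) and Dbp genes through E-boxes, and the Per and Cry proteins switch that activity off. Per1 also answers quickly to glucocorticoids and to neuronal signals. Of the 20 clock genes, 15 were higher after oleic acid, with a median difference of 0.21 (0.13 without oleic acid replicate 3). In 6 of the 20, against 4.10% of all genes, the arrays had separate groups with oleic acid higher, and in 0 were they separate with oleic acid lower.

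The promoter sequences of 3 of these genes and of Alas2 are shown because they hold the motifs through which clock factors and red cell factors are known to act. They are the 250 bases before the transcription start in RefSeq (GRCm38.p6), 5′ to 3′ on the strand of the gene, and capitals mark the motif searched on both strands. That motif was CACGTG, the E-box, in the clock genes. The Ciart promoter lies on the minus strand at chr3:95882229-95882478, that of Per1 on the plus strand at chr11:69098699-69098948, that of Cry1 on the minus strand at chr10:85185055-85185304 and that of Alas2 on the plus strand at chrX:150547167-150547416.
Ciart: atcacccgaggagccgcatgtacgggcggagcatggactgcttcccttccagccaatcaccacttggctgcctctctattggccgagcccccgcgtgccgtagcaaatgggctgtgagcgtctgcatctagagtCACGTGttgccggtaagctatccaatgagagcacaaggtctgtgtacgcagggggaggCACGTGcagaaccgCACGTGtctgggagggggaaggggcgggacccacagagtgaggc
Per1: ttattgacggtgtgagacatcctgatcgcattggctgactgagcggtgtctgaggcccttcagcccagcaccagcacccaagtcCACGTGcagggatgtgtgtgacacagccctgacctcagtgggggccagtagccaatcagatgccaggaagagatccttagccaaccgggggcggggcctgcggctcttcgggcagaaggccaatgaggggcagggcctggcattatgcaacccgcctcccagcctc
Cry1: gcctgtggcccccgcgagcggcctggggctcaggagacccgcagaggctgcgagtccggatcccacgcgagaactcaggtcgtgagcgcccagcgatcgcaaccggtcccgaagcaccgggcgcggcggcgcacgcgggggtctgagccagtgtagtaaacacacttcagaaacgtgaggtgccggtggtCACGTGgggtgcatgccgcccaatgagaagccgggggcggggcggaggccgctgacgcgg
Alas2: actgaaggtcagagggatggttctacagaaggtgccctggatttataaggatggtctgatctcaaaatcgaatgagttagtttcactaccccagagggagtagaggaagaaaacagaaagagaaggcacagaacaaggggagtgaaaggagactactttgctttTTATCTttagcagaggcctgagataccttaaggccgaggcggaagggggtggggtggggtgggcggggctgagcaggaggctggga
The Ciart promoter holds 3 E-boxes and that of Per1 holds 1, while a second Per1 promoter of the table holds 0. Cry1, whose log2 signal did not separate the groups, holds 1 as well. The promoters of Nr1d1, Nr1d2, Dbp and Clock hold 0. The 23 promoters examined belong to 17 of the 20 clock genes, and none was available for Per2 and Bhlhe40. Of the 23, 6 hold an E-box, against 6.02% of all 32851 promoters. Those 6 belong to 5 genes, and each promoter of Tef is among them. In Alas2 the capitals read TTATCT, which is AGATAA, a site of GATA factors, on the opposite strand. Of the 11 promoters of red cell genes, 4 hold AGATAA on either strand, against 9.99% of all promoters. A match is a description of the letters and not a measured binding site.

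Ciart, a repressor of the CLOCK complex, had log2 signals of -1.40, -1.39 and -1.01 after oleic acid and of -2.53, -2.51 and -1.76 after serum. Every oleic acid array was above every serum array. The difference was 1.00 (SE 0.24; adjusted p = 0.340, limma), or 2.00-fold higher after oleic acid, and without serum replicate 3 it was 1.26 with an adjusted p of 0.0436. Per2 stood at -1.19, -1.38 and -0.17 after oleic acid and at -1.98, -1.76 and -1.43 after serum, also without overlap, with a difference of 0.81 (SE 0.23; adjusted p = 0.579). Per1 stood at 4.34, 4.44 and 5.13 after oleic acid and at 3.77, 4.26 and 4.10 after serum, a difference of 0.59 (SE 0.22; adjusted p = 0.924).

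Oleic acid replicate 3 was the highest array for Ciart, Per2 and Per1. Without it their differences were 0.87, 0.44 and 0.35. Dbp, a clock-driven transcription factor, had signals of 5.15, 5.12 and 5.69 after oleic acid and of 4.30, 4.23 and 5.22 after serum. Serum replicate 3 was above 2 of the oleic acid arrays, so that the groups overlapped. The difference of Dbp was 0.74 (SE 0.20; adjusted p = 0.579). Without serum replicate 3, the array that overlapped, it was 1.06 with an adjusted p of 0.0177 in limma, which is no separate support.

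Nr1d1, the repressor Rev-erb alpha, had a similar order, at 1.30, 1.33 and 2.77 after oleic acid and at 0.68, 0.65 and 1.48 after serum. Bhlhe40, a repressor that competes at E-boxes, differed by 0.60 (SE 0.19) and Nr1d2 by 0.35 (SE 0.19), both without overlap. Clock itself had separate groups with a difference of 0.14 (SE 0.14). Arntl and Cry1 differed by -0.05 (SE 0.14) and 0.14 (SE 0.43), and Cry1 was above background on 1 array of each group. At 1.5 h the differences of Ciart, Per2, Per1 and Dbp were -0.14, -0.08, -0.26 and -0.18. The adjusted p for 1 h against the mean of the other times was 0.961 for Ciart, Per2 and Dbp (limma).

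**Figure D3:**
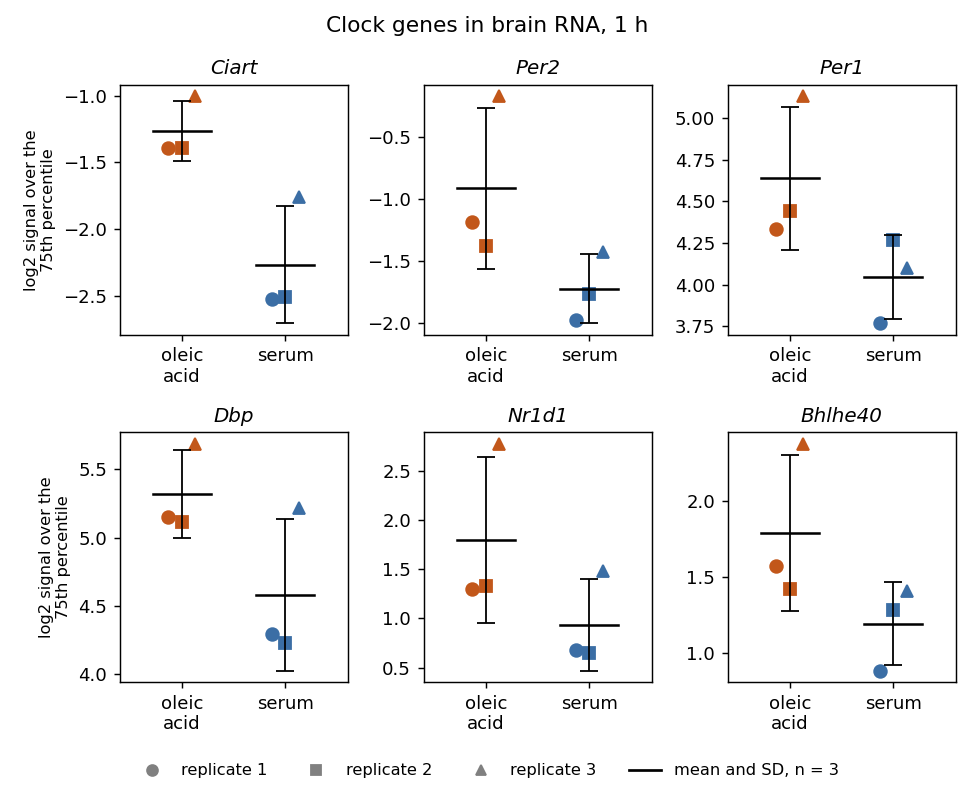
Log2 signal over the 75th percentile of the array for 6 clock genes at 1 h, oleic acid left and serum right, with symbols for the replicate and bars for mean and SD (n = 3 each). Ciart, Per2, Per1 and Bhlhe40 do not overlap between groups, and in Dbp and Nr1d1 serum replicate 3 lies among the oleic acid arrays.

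Immediate early genes, transcription factors and signalling genes that neurons switch on within minutes of activity, leaned higher too. Of the 30 measured, 25 were higher after oleic acid, with a median of 0.22, and 3 had separate groups with oleic acid higher, beside 4.10% of all genes. Egr1 stood at 3.83, 3.90 and 4.42 after oleic acid and at 3.58, 3.65 and 3.44 after serum, a difference of 0.49 (SE 0.26). Egr2 showed the largest difference of the list, 1.22 (SE 0.54), at -1.15, -0.41 and 0.03 after oleic acid and -2.28, -0.72 and -2.20 after serum. Serum replicate 2 lay among the oleic acid arrays for Egr2.

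Atf3, a stress-induced factor, differed by 0.71 (SE 0.30), Nr4a1 by 0.64 (SE 0.34), Egr4 by 0.41 (SE 0.25) and Fos by 0.36 (SE 0.31). Arc, an effector at synapses, spanned 2.79 to 3.84 after oleic acid and 2.36 to 3.91 after serum. Jun went the other way with a difference of -0.65 (SE 0.24), and there oleic acid replicate 3 stood at 2.41 while the other 5 arrays lay between 3.51 and 3.96. The median of the list was 0.09 without oleic acid replicate 3.

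The brain transcript with the largest difference among the 15 higher genes of smallest p was Syt10, a synaptotagmin that senses calcium for the release of IGF1 in olfactory bulb neurons. It had log2 signals of -0.40, -1.31 and -0.52 after oleic acid and of -3.17, -3.51 and -3.21 after serum, so that the groups lay far apart. The difference was 2.55 (SE 0.71; adjusted p = 0.579, limma), or 5.86-fold higher after oleic acid. The SE comes from all 31 arrays: at 3 h the serum arrays spanned -3.05 to -0.77 and the oleic acid arrays -3.50 to -0.55, and at 1.5 h 3 oleic acid arrays spanned -3.15 to -0.89. The probe of Syt10 lies on the minus strand of chromosome 15 (89612967 to 89613026, mm9).

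Ano2, a calcium-activated chloride channel of sensory and other neurons, had signals of -1.78, -1.87 and -1.18 after oleic acid and of -2.31, -2.60 and -2.04 after serum, a difference of 0.71 (SE 0.17; adjusted p = 0.340). Rxfp3, the receptor of relaxin-3, stood at -3.09, -2.68 and -3.20 after oleic acid and at -4.30, -3.89 and -3.93 after serum, a difference of 1.05 (SE 0.33). Both lay apart between the groups. Dab1, the adaptor of reelin signalling, differed by 0.35 (SE 0.11), the transcription factor Deaf1 by 0.36 (SE 0.12) and Sorbs2, a cytoskeletal adaptor, by 0.66 (SE 0.20). Aox3, an aldehyde oxidase, differed by 0.69 (SE 0.21).

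The remaining genes of that set were Krtap20-2, Tomm20l, Zswim1, Tmem150a and Gm16287, with differences of 0.76, 0.53, 0.42, 0.50 and 0.63. Of the 15 higher brain genes of smallest p, Dbp and Sorbs2 overlapped between groups and the other 13 did not. The 15 were picked by p of this same comparison, so that this count is no separate evidence. Over all genes, 4.10% were separate with oleic acid higher.

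Tent5c, which encodes a poly(A) polymerase, was the lower brain transcript of smallest p. Its log2 signal was -2.24, -2.33 and -3.20 after oleic acid and -1.03, -1.47 and -1.74 after serum, without overlap, a difference of -1.18 (SE 0.25; adjusted p = 0.212, limma). Its probe lies on the minus strand of chromosome 3 (100275573 to 100275632, mm9). Tent5c is expressed in red cell precursors and plasma cells, and over the 25 arrays of the other times its correlation with the erythroid list was 0.51. Isg20, an interferon-induced nuclease, differed by -0.93 (SE 0.24) and had a correlation of 0.56 with that list. The part that blood RNA had in these 2 genes was not tested.

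Pou4f1, a transcription factor of the medial habenula and of sensory neurons, had signals of -1.79, -1.81 and -2.14 after oleic acid and of -1.43, -1.34 and -1.27 after serum, a difference of -0.57 (SE 0.14; adjusted p = 0.340). Fgf18, a growth factor, differed by -0.69 (SE 0.19), the translational regulator Cpeb2 by -0.52 (SE 0.14) and Azin1, which protects ornithine decarboxylase from its antizyme, by -0.61 (SE 0.18). Fcmr, the receptor of IgM, differed by -0.87 (SE 0.24), Zfp455 by -0.70 (SE 0.19) and the quinone reductase Nqo2 by -0.44 (SE 0.13). The highest of their correlations with the liver, lung and erythroid lists was 0.22, for Cpeb2 with the erythroid list, and the lowest -0.56, for Azin1 with the liver list.

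**Figure D4:**
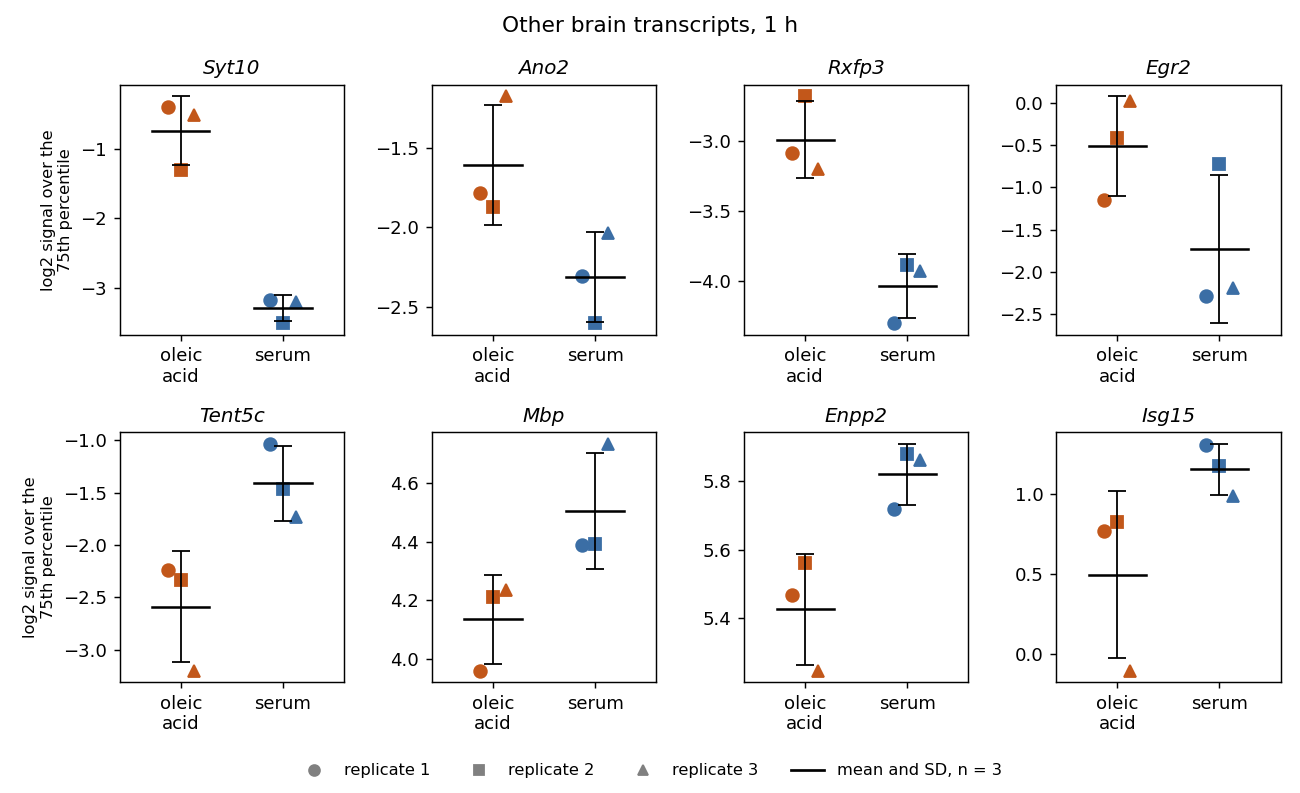
Log2 signal over the 75th percentile of the array for 8 brain transcripts at 1 h, oleic acid left and serum right, with symbols for the replicate and bars for mean and SD (n = 3 each). The groups do not overlap in Syt10, Ano2, Rxfp3, Tent5c, Mbp, Enpp2 and Isg15, and in Egr2 serum replicate 2 lies among the oleic acid arrays.

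Choroid plexus and myelin transcripts were slightly lower after oleic acid. The choroid plexus is the epithelium that secretes cerebrospinal fluid and separates it from blood. Of 20 genes of choroid plexus and ependyma, 17 were lower, with a median of -0.28, and 10 had separate groups with oleic acid lower, where 5.80% of all genes did. Enpp2 (autotaxin), which makes lysophosphatidic acid, stood at 5.47, 5.56 and 5.25 after oleic acid and at 5.72, 5.88 and 5.86 after serum, a difference of -0.40 (SE 0.12; adjusted p = 0.725, limma).

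Otx2, the homeobox factor that specifies choroid plexus, differed by -0.53 (SE 0.19), the water channel Aqp1 by -0.40 (SE 0.21), the potassium channel subunit Kcne2 by -0.53 (SE 0.27) and transthyretin (Ttr), the main secreted protein, by -0.28 (SE 0.18). The ciliary genes of ependyma were closer to 0, with Foxj1 at -0.16 (SE 0.14) and Tmem212 at 0.24 (SE 0.18). The mean log2 signal of the list was -0.22, -0.16 and -0.40 after oleic acid and -0.06, -0.01 and 0.04 after serum. Oleic acid replicate 3 was the lowest, and without it the median was -0.20.

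Of 18 genes of oligodendrocytes and myelin, 16 were lower after oleic acid, with a median of -0.21, and 7 had separate groups with oleic acid lower, beside 5.80% of all genes. Mbp, the basic protein of myelin, stood at 3.96, 4.21 and 4.23 after oleic acid and at 4.39, 4.39 and 4.74 after serum, a difference of -0.37 (SE 0.17; adjusted p = 0.924, limma). All oleic acid arrays lay below all serum arrays. Cldn11 and Olig1 differed by -0.33 (SE 0.11) and -0.21 (SE 0.09). Mag and Cnp, also of myelin, differed by -0.02 (SE 0.15) and -0.0044 (SE 0.18). Ermn stood at 3.90, 3.82 and 1.07 after oleic acid and between 3.27 and 3.33 after serum, so that its difference was -0.36 with all arrays and 0.57 without oleic acid replicate 3.

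Astrocyte genes were lower in 14 of 18, with a median of -0.12, and Glul, the glutamine synthetase, differed by -0.25 (SE 0.11) without overlap. Of 19 genes of sodium, potassium and water transport, which govern the water balance of the brain, 16 were lower, with a median of -0.12. The astrocyte potassium channel Kcnj10 stood at 4.73, 4.63 and 4.67 after oleic acid and at 4.83, 4.93 and 4.91 after serum, without overlap. The median of 18 neuron genes was -0.02, of 19 microglia genes 0.11 and of 20 endothelial and barrier genes -0.02. Within the neuron list the neurofilament genes Nefl, Nefm and Nefh differed by -0.35 (SE 0.14), -0.60 (SE 0.20) and -0.48 (SE 0.23).

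**Figure D5:**
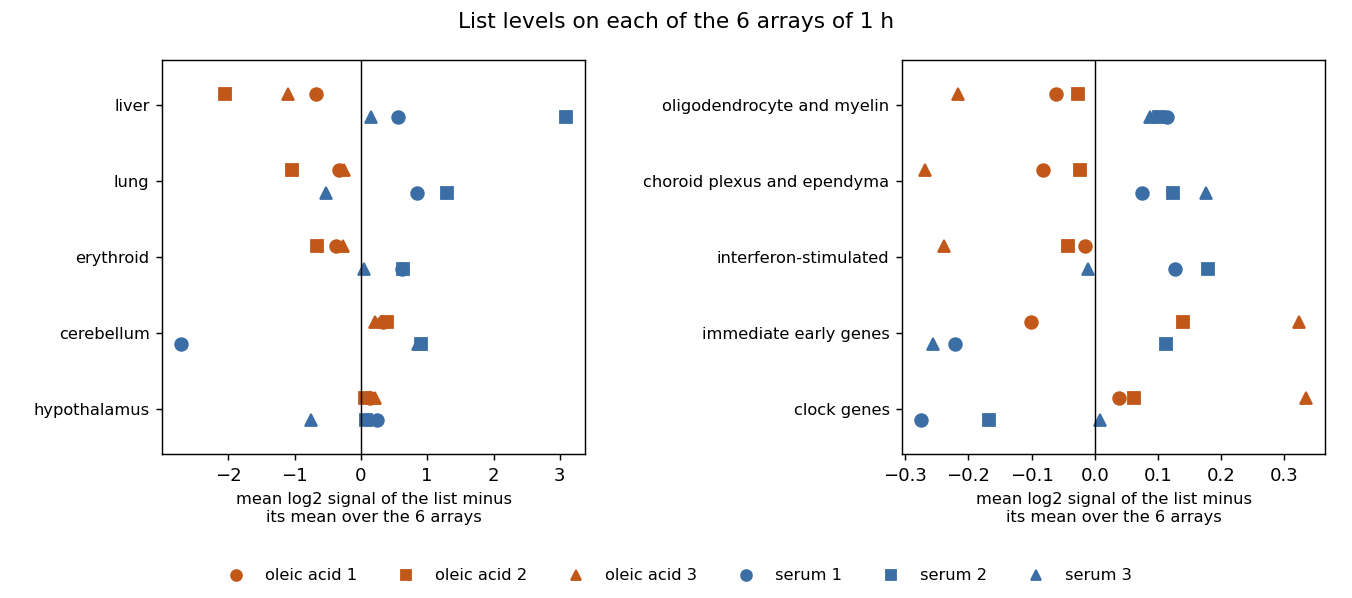
Mean log2 signal of 10 gene lists on each of the 6 arrays of 1 h, minus the mean of that list over the 6 arrays, with oleic acid arrays above serum arrays in each row. The liver, erythroid, oligodendrocyte, choroid plexus, interferon and clock lists do not overlap between groups, though the interferon groups nearly touch. Serum replicate 1 is far below the other arrays for cerebellum and serum replicate 3 for hypothalamus. The lists shown were chosen from the 34. The astrocyte list and that of sodium, potassium and water transport, not shown, do not overlap either.

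Regional markers set single serum mice apart. Serum replicate 1 lacked most cerebellar signal: Pcp2, a Purkinje cell gene, stood at 5.50, 5.46 and 5.32 after oleic acid and at -1.31, 5.92 and 6.04 after serum. Without that array the median of the cerebellum list was -0.60, against 0.38 with it. Oxt and Avp, the hypothalamic hormones oxytocin and vasopressin, stood at 0.62 and -1.96 in serum replicate 3. Elsewhere they lay between 3.60 and 4.07 and between 1.93 and 2.80.

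Of 16 hypothalamus genes, 14 were higher and 2 lower after oleic acid, with a median of 0.20, or 0.0029 without serum replicate 3. Of 14 striatum genes, 13 were higher, with a median of 0.17, or -0.0051 without serum replicate 3. Crh, the corticotropin-releasing hormone that starts the adrenal stress response, went against its hypothalamus list and was its only gene with separate groups. It had signals of 0.07, 0.17 and -0.06 after oleic acid and of 0.63, 0.49 and 0.27 after serum, a difference of -0.41 (SE 0.14). The part that tissue sampling had in the lists of brain regions and cell types was not tested.

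Interferon-stimulated genes, which restrain viruses and mark type I interferon, were lower in 22 of 29, with a median of -0.25, and 7 had separate groups with oleic acid lower, beside 5.80% of all genes. Isg15, a ubiquitin-like modifier, stood at 0.76, 0.82 and -0.10 after oleic acid and at 1.30, 1.17 and 0.98 after serum, a difference of -0.66 (SE 0.21; adjusted p = 0.827). Ifi27 and Xaf1 differed by -0.33 (SE 0.12) and -0.44 (SE 0.17), while Ifit3 differed by 0.25 (SE 0.13). Without oleic acid replicate 3 the median was -0.19 and the difference of Isg15 was -0.36, and without serum replicate 2 the median was -0.14.

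Of 30 inflammatory genes, 20 were measured, with a median of 0.04. Nfkbia, an inhibitor that NF-kB itself induces, stood at 3.24, 3.28 and 3.65 after oleic acid and at 3.05, 3.59 and 3.31 after serum. Only 1 of the 20, Bcl3, had separate groups, beside 5.80% of all genes with oleic acid lower, so that the list did not stand out. Bcl3, a co-regulator of NF-kB, stood at -3.10, -2.97 and -4.07 after oleic acid and at -2.51, -2.29 and -2.63 after serum.

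Lists of lipid handling and of stress were close to the median of all genes. The medians were 0.02 for 30 genes of fatty acid transport and synthesis, -0.02 for 28 genes of PPAR targets and fatty acid oxidation, 0.05 for 26 HIF targets, -0.03 for 24 glucocorticoid-responsive genes, -0.02 for 17 heat shock genes, -0.05 for 21 genes of the unfolded protein response and -0.04 for 20 NRF2 antioxidant genes. Fads2, the desaturase at the head of polyunsaturated fatty acid synthesis, stood at 1.15, 1.12 and 1.65 after oleic acid and at 0.94, 0.81 and 1.09 after serum, a difference of 0.36 (SE 0.14). Insig1, which holds back sterol synthesis, and Elovl1, an elongase, differed by -0.36 (SE 0.18) and -0.27 (SE 0.13).

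Slc7a11, the cystine importer of the antioxidant response, differed by 0.32 (SE 0.13), and the small heat shock gene Hspb1 by -0.49 (SE 0.23), both without overlap. Of 27 GABA-A and glutamate receptor genes the median was 0.03, with Grik2, a kainate receptor subunit, at -0.34 (SE 0.13). Ribosomal protein and respiratory chain genes had medians of -0.01 and -0.04, and their members lay within -0.21 to 0.18.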

How the data were processed

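Brain RNA of 31 mice was measured on single-colour arrays, and the 6 arrays of 1 h were compared by treatment. Per the file headers, the authors ran Agilent Feature Extraction 10.5.1.1. Each deposited file lists the intensity of every spot: a mean, a local background and a processed value, which has the background subtracted and low values replaced. Flags for spots above background are 0 or 1 in the deposited files. The series' deposited table of log2 values proved to be quantile-normalized from the mean intensities and served as an alternative. Hybridised samples were labelled as separate mice, and the number of arrays limits the precision.

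Processed intensities were divided by the 75th percentile of their array and log2-transformed. Control spots and non-uniform spots were left out and spots of a probe averaged. A probe was kept if some group of the 12 had it above background throughout and no array lacked its value (35499 of 55681). The brightest of a gene's probes stood for it, which gave 25173 genes. Names came from RefSeq by accession (26582 probes), by symbol (2602) or by older symbol (492), and the array's own name was kept for 26005. Probe positions are on mm9, per the file annotation, and promoters on GRCm38.p6.

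limma 3.58.1 in R 4.3.3 fitted all 12 groups together, with 19 residual degrees of freedom, and p-values were adjusted over all genes by Benjamini and Hochberg. The fit was tested on simulated data with known changes. Organ genes were members of the organ lists, or genes with a Pearson correlation of at least 0.8 with the mean of the liver, lung or erythroid list over the 25 arrays of other times (12 genes beyond the lists). Named genes were the 15 of smallest unadjusted p in each direction, organ and other genes apart, with an official symbol and, for the others, above background on all 6 arrays. The other named genes were list members that were brightest, had separate groups or had an unadjusted p under 0.05, and examples of a level. The comparison, the 34 gene lists and these rules were chosen with earlier results of these data known. Alternatives changed the background correction, the scaling, the value table, the filter, the probes, the arrays fitted, the blocks, the array weights, the variance prior and the arrays left out. Probes without a value on some arrays were added back, and dim signals were raised to the array's dimmest signal above background, as alternatives chosen after seeing the data.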

Additional observations from a re-analysis of the deposited data

Results flagged for a closer look

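For 3 gene lists the 1 h difference had the opposite direction at a later time, with no overlap of the oleic acid and serum arrays at both times. For the interferon-stimulated list they nearly touched at 1 h, with the highest oleic acid array at -1.3805 and the lowest serum array at -1.3758. The later groups held 3 oleic acid and 2 serum arrays at 3, 4 and 24 h, and 2 of each at 18 h. With so few arrays, groups lie fully apart easily. The mean log2 signal of the liver list differed by -2.54 at 1 h and by 1.497 at 4 h, oleic acid minus serum. That of the clock list differed by 0.29 at 1 h and by -0.14 at 18 h, and that of the interferon-stimulated list by -0.20 at 1 h and by 0.16 at 3 h. The groups were also fully apart in the direction of 1 h at 18 h for the liver list, with a difference of -0.68, at 24 h for the clock list, with 0.092, and at 18 h for the interferon-stimulated list, with -0.185. These differences between times were not tested for the lists, and no single gene passed the adjusted test of 1 h against the other times in limma.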

How the results depend on the processing

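Of 2293 recomputed differences of the 121 named genes, 2243 kept their direction and their side of the threshold, 22 passed the adjusted test and 28 changed sign, in 12 genes. The variance prior, the slide and replicate blocks and the fit of only the 6 arrays leave each difference unchanged. In those alternatives a direction could not change, and only the test could. The 0 calls at 1 h became 1 with array weights, whose estimation did not converge, and 0 to 30 with an array left out. Those for 1 h against the other times became 6 with the slide as a block and 0 to 12 with an array left out. Groups were separate in 2095 higher genes without the filter on dim probes and in 843 lower genes with normexp. With an array left out, where fewer arrays make separation easier, they were separate in 1553 to 3116 higher and 2443 to 3466 lower genes. The erythroid median was -0.90 in the deposited value table, -0.77 with normexp, -0.19 without the filter, which adds dim members, and -1.57 to -1.03 with an array left out. The liver median was -1.18 with normexp and -1.52 in the deposited table. The lung median was -0.43 with normexp, -0.55 in the deposited table, -0.58 with the stricter filter on dim probes and -1.56 to -0.67 with an array left out. With dim signals raised to the floor, an alternative chosen after seeing the data, the erythroid, liver and lung medians were -0.99, -2.20 and -0.66. Other causes of these changes were not tested. Of 649 recomputed list medians, 627 moved by under 1 SD of the list level between replicates. This count is a weak check, since the alternatives that leave each difference unchanged could not move a median. The SD was also wide where single arrays stood apart, at 1.23 for liver and 1.47 for cerebellum. The liver median of -1.53 without serum replicate 2 thus counted as under 1 SD. So did the cerebellum median of -0.60 without serum replicate 1, against 0.38 with all arrays.

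With the replicate number as a block, over the 6 arrays, 0 genes passed and 960 had an unadjusted p under 0.05. Deviations from the group means correlated at -0.02, 0.01 and 0.06 between arrays of the same number, so the numbers were not treated as pairs.

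The differences that changed sign were small or rested on 1 array. With an array left out they ranged from -0.072 to 0.083 for Lamp3, -0.148 to 0.036 for Fech, -0.185 to 0.034 for Arntl, -0.074 to 0.433 for Cry1, -0.0021 to 0.771 for Arc, -0.193 to 0.072 for Mag, -0.228 to 0.116 for Cnp and -0.847 to 0.565 for Ermn. They ranged from -0.558 to 3.12 for Pcp2, -0.033 to 2.20 for Avp and -0.060 to 0.209 for Nfkbia. For Thy1 they ranged from -0.060 to 0.221. With array weights, Ermn was at 0.33 and Nfkbia at -0.064. Cnp was at 0.0087 and Mag at 0.0020 after quantile normalization, and they were at 0.022 and 0.0031 with the median as scale. In the deposited table Lamp3 was at -0.0079 and Mag at 0.014, and with normexp Lamp3 was at -0.023. Dim probes carry only a bound, and many liver genes were above background on 1 oleic acid array or none.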
